A study of Homo sapiens with 64 samples.

Results

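SLC19A1, SLC19A2 and SLC19A3 are the 3 members of the SLC19 family of vitamin carriers, and they were followed here across 4 treatments and 4 times in BEAS-2B, a cell line derived from human bronchial epithelium. They are 3 of the 18132 genes that the arrays measured through probe sets with 1 gene symbol. SLC19A2 was chosen for its fast rise with budesonide, so it was selected on measured values, and SLC19A1 and SLC19A3 were taken as its relatives. The levels of SLC19A2 with budesonide alone against untreated cells, and the interaction that contains this contrast, are therefore given as a description, with no test. Each gene was read through its probe set with the highest mean over the 64 arrays.

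The cells had been kept overnight in medium without serum before treatment. The groups were cells given 100 nM budesonide together with 10 nM formoterol (the combination), cells given 100 nM budesonide, cells given 10 nM formoterol, and untreated cells, each collected at 1, 2, 6 and 18 h with 4 arrays per group. Budesonide is an inhaled glucocorticoid, and formoterol is a long-acting agonist of the beta2-adrenoceptor that raises cyclic AMP. A single cell line was used, and the labels give no vehicle for the untreated cells. The series text calls the 4 arrays of a group independent determinations without saying what they share, so the p-values below reflect the spread between these arrays, which may be technical in part. The values are log2 expression, which gives no read depth, so it is the number of arrays that limits precision. In bulk RNA, a change in the share of cells that express a gene and a change per cell cannot be told apart.

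Array medians lay between 4.87 and 4.95 and the lower quartile of all values was 3.02, which serves below as a rough guide to background because no detection calls were used. Of 8 measured epithelial markers 7 averaged above this level, of 4 leukocyte markers 1 did (CD3E, 3.49), of 4 endothelial markers 3 did, at up to 4.71, and of 7 fibroblast and mesenchymal markers 5 did, with VIM at 13.05. EPCAM, an epithelial marker, was among those below it. The beta-actin signal at the 3' end less that at the 5' end, which grows as RNA degrades, stood highest on the replicate 1 arrays at 1, 6 and 18 h (1.52 to 2.21 log2 units) and on the replicate 3 arrays at 2 h (1.35 to 1.61). The replicate 1 arrays at 2 h, at 1.30 to 1.51, overlapped those of replicate 3.

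Thiamine, or vitamin B1, cannot be made by human cells. SLC19A2 (also called THTR1) and SLC19A3 (THTR2) carry it across the plasma membrane, and SLC19A1 is the reduced folate carrier, which also moves thiamine phosphates. Loss of SLC19A2 causes thiamine-responsive megaloblastic anaemia, and loss of SLC19A3 causes a thiamine- and biotin-responsive disease of the basal ganglia. Inside the cell thiamine is phosphorylated to thiamine diphosphate, the cofactor of transketolase and of the pyruvate, oxoglutarate and branched-chain dehydrogenases.

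The 250 bases before a start site of SLC19A2 and of SLC19A1 are shown because these were the carriers whose levels moved. Both come from RefSeq (GRCh38.p14, minus strand, 5′ to 3′), the first at chr1:169485971-169486220 and the second at chr21:45563026-45563275. Capitals mark matches, on either strand, to TGTTCT, the core of the glucocorticoid receptor site, or to TGACG, the core of the site of the cyclic AMP-responsive factor CREB.

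SLC19A2: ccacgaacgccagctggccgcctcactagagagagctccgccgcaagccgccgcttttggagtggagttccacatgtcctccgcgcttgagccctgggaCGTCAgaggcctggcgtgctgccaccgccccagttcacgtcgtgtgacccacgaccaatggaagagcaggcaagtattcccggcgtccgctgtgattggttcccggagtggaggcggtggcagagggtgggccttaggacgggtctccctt
SLC19A1: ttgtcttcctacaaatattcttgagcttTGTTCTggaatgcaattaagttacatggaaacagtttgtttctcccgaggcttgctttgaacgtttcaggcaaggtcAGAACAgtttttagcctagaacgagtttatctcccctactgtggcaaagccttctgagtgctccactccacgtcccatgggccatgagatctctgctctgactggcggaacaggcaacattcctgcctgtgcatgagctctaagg

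The SLC19A2 window held 1 CREB core, CGTCA, at positions -151 to -147 counted from the start, and no glucocorticoid receptor core. Its other annotated start site lies inside nearly the same sequence and gave the same match. The SLC19A1 window held TGTTCT from -222 to -217 and its reverse complement AGAACA from -145 to -140. Of the 3 other SLC19A1 start sites, 1 had a CREB core at -38 to -34 and the other two had no match, and the 1 SLC19A3 window had none. Over 35116 promoter windows of the same length, 12.4% held TGTTCT and 21.2% held TGACG on either strand. The 8-base CREB site TGACGTCA, which contains the core, was in 1.65%, and the full receptor site, AGAACA and TGTTCT with 3 bases between, was in 1 window. Neither longer site was in any window of the 3 carriers. These matches are descriptions of the letters in a short window and say nothing about binding elsewhere.

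In formoterol-treated cells SLC19A2 was far higher with budesonide from 1 to 6 h, and was still higher at 18 h. Its levels with budesonide alone, the contrast it was chosen on, are a description only. Formoterol alone raised SLC19A2 at 1 and 2 h on the chosen probe set, in a comparison that shares its untreated arrays with that contrast. A second probe set called the rise at 2 h only. On its chosen probe set SLC19A1 was lower with budesonide at 18 h, with or without formoterol. No other SLC19A1 probe set called the fall with budesonide alone. No comparison of SLC19A3 passed the test on its chosen probe set.

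**Figure D1:**
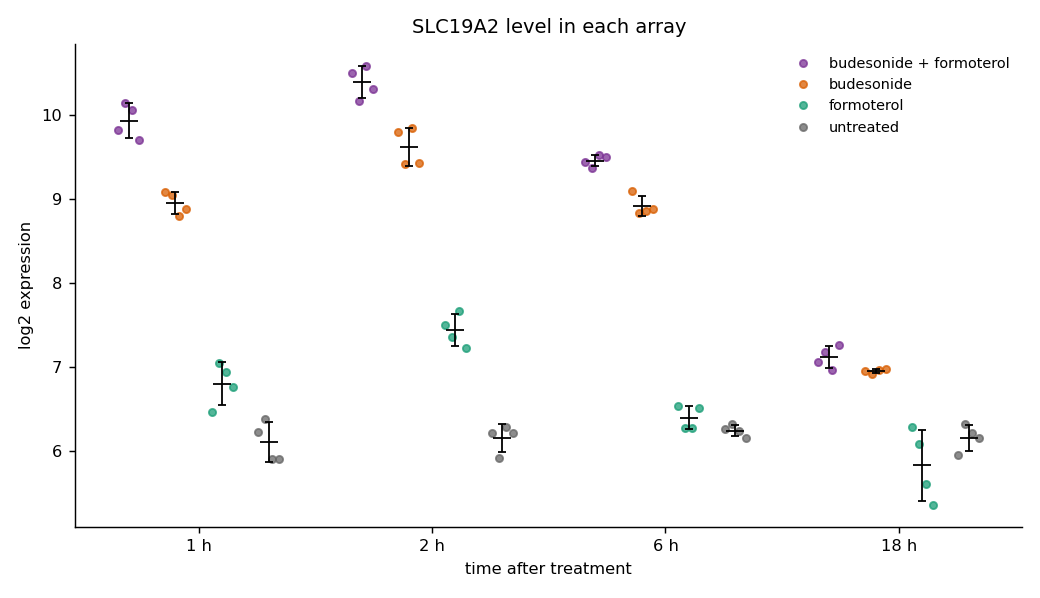
SLC19A2 level (log2 expression) on each of the 64 arrays, by time after treatment and by treatment. Points are arrays, and black marks are the group mean ± SD (n = 4). The combination had the highest mean at every time, 9.93, 10.39, 9.46 and 7.11, and the untreated groups averaged between 6.10 and 6.24.

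The effect of budesonide in cells that also received formoterol rests on other arrays than the contrast SLC19A2 was chosen on, so it was tested. The test is not fully independent of the choice. The probe set was picked by its mean over all arrays, these included, and earlier results of these data were known. Deviations of same-numbered arrays from their group means also correlated between treatments (mean r 0.283 for the combination and budesonide at 1 h). At 1 h the combination arrays read 9.82, 10.15, 10.06 and 9.70, against 6.46, 7.05, 6.94 and 6.75 with formoterol. At 2 h they read 10.50, 10.17, 10.59 and 10.31, against 7.50, 7.36, 7.66 and 7.22 with formoterol. Every combination array was above every formoterol array at both times. At 6 h the combination arrays read 9.44, 9.37, 9.52 and 9.50, against 6.53, 6.27, 6.27 and 6.51 with formoterol. At 18 h they read 7.06, 7.18, 6.96 and 7.26, against 6.28, 6.07, 5.60 and 5.35 with formoterol. The groups were again apart, but the gap had narrowed and the formoterol arrays at 18 h were more spread (SD 0.43) than any other SLC19A2 group.

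The log2 differences, combination minus formoterol, were 3.13 ± 0.13 (SE, n = 4 per group) at 1 h, 2.96 at 2 h, 3.06 at 6 h and 1.29 at 18 h, all with the same SE. In limma's test with Benjamini-Hochberg adjustment over all genes the adjusted p was 1.16e-27, 1.38e-26, 5.72e-28 and 4.56e-12 in that order of times. These are increases of 8.78-fold, 7.77-fold, 8.36-fold and 2.44-fold. The test called 1.27% of all genes at 1 h, 4.15% at 2 h, 13.4% at 6 h and 17.6% at 18 h, so a call by itself says less at the later times. These percentages are from the unpaired fit. Blocking on replicate number inside each time, 379 genes were called at 1 h, against 230 without the block, and 1219 at 2 h, against 753. By size SLC19A2 ranked 5 of 18132 genes from the highest at 1 h, 12 at 2 h, 19 at 6 h and 137 at 18 h.

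From 1 to 6 h no change in the size of this effect was called. It changed by -0.17 between 1 and 2 h (95% interval -0.55 to 0.20, adjusted p = 1 by limma) and by 0.10 between 2 and 6 h (-0.27 to 0.48, adjusted p = 0.938). Between 6 and 18 h it fell by 1.77 ± 0.19 log2 units, with an adjusted p of 1.16e-10. Across all genes 0.745%, 5.07% and 6.78% changed their effect between these successive times.

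A second SLC19A2 probe set, dimmer and noisier (mean within-group SD 0.40 against 0.17), gave the same picture at the early times. Its combination minus formoterol differences were 3.22, 3.20, 2.67 and 0.72 from 1 to 18 h, the last with an adjusted p of 0.0903 over all probe sets. Its fall between 6 and 18 h was -1.95 (adjusted p = 0.000719). Another probe set carried values identical to the chosen one on all 64 arrays and adds nothing.

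With budesonide alone, the contrast that led to the choice of this gene, the budesonide arrays read 9.08, 9.05, 8.80 and 8.88 at 1 h, against 6.22, 6.38, 5.90 and 5.90 in untreated cells. At 2 h they read 9.79, 9.41, 9.84 and 9.43, against 6.21, 5.91, 6.28 and 6.21. The level at 2 h was the highest of the 4 budesonide groups. At 6 h they read 9.10, 8.83, 8.86 and 8.87, against 6.25, 6.31, 6.24 and 6.15 in untreated cells. At 18 h they read 6.95, 6.92, 6.96 and 6.97, against 5.95, 6.31, 6.21 and 6.15. No array overlapped at any time, and the differences were 2.85, 3.47, 2.68 and 0.80 log2 units from 1 to 18 h (SE 0.13). Among all genes 0.998%, 3.94%, 14.2% and 18.3% passed the test in this contrast at the 4 times, and nothing is read from it for SLC19A2.

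Formoterol minus untreated shares its untreated arrays with the contrast behind the choice. SLC19A2 rose by 0.70 ± 0.13 at 1 h (adjusted p = 0.000267 by limma), with all 4 formoterol arrays above all 4 untreated arrays. At 2 h it rose by 1.28 ± 0.13, or 2.43-fold, to a mean of 7.43 ± 0.19 with formoterol against 6.15 ± 0.17 in untreated cells (SD, n = 4 each), with an adjusted p of 1.79e-11. In the unpaired fit formoterol changed 1.34% of all genes at 1 h and 4.6% at 2 h. With a block on replicate number inside each time, 557 genes were called at 1 h, against 243, and 1637 at 2 h, against 834. The second probe set gave 0.21 at 1 h (adjusted p = 1) and 1.07 at 2 h (adjusted p = 0.0167), so the call at 1 h depends on the probe set.

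At 6 h the formoterol and untreated arrays overlapped, with means of 6.39 and 6.24 and a difference of 0.15 (95% interval -0.11 to 0.42, adjusted p = 0.752). At 18 h the formoterol mean, 5.83, was the lowest of the 16 groups, against 6.15 in untreated cells. That difference of -0.33 (-0.59 to -0.06) missed the threshold at an adjusted p of 0.296. Without the formoterol replicate 1 array at 18 h it was -0.48 with an adjusted p of 0.0415, and without all replicate 1 arrays it was -0.55 with 0.0492. The second probe set gave -0.03 there. At 6 and 18 h formoterol changed 4.81% and 1.11% of all genes. The effect of formoterol on SLC19A2 differed between the times by limma's moderated F test (F = 27.87, adjusted p = 7.5e-09), which called 4.51% of all genes.

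Adding formoterol to budesonide raised SLC19A2 at the 3 earlier times, in a comparison that shares its budesonide arrays with the contrast behind the choice. The combination was above budesonide by 0.98 ± 0.13 at 1 h (adjusted p = 1.29e-07), by 0.77 at 2 h (adjusted p = 1.55e-05) and by 0.54 at 6 h (adjusted p = 0.00383), by limma with the same SE. All 4 combination arrays lay above all 4 budesonide arrays at each of these times. At 18 h the difference was 0.16 (95% interval -0.10 to 0.43, adjusted p = 0.866) and the arrays overlapped. This comparison called 1.47%, 4.38%, 6.72% and 0.651% of all genes from 1 to 18 h in the unpaired fit. Blocked on replicate number inside each time, it called 437, 1532, 2587 and 665 genes in that order, against 267, 794, 1218 and 118. On the second probe set the differences were 1.06 (adjusted p = 0.0448), 0.81 (0.145), 0.55 (0.392) and 0.04 (adjusted p = 1), so sizes were close while only the call at 1 h held.

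**Figure D2:**
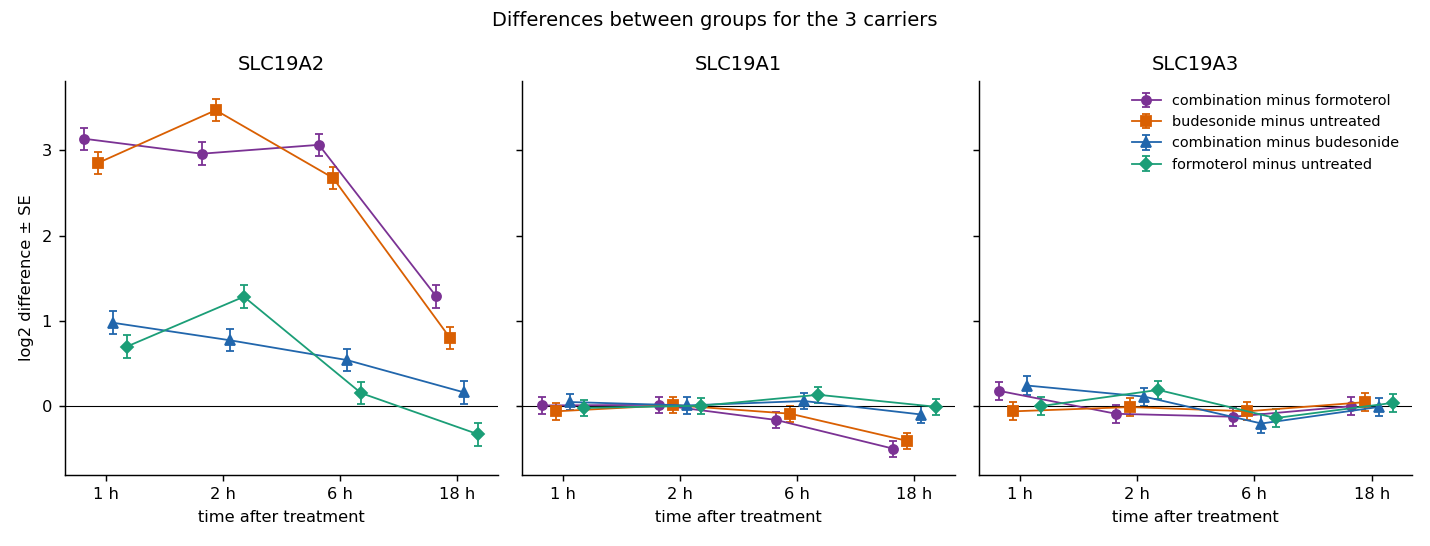
Log2 differences ± SE (n = 4 arrays per group) of SLC19A2, SLC19A1 and SLC19A3 for 4 comparisons at 1, 2, 6 and 18 h, on one scale. SLC19A2 stood near 3 with budesonide in the presence of formoterol from 1 to 6 h, while SLC19A1 left 0 at 18 h in the budesonide comparisons (-0.50 and -0.41). For SLC19A2 the difference of budesonide minus untreated is the measure it was chosen on.

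The interaction asks whether the combination exceeds the sum of the single-drug effects on the log2 scale, and for SLC19A2 it is a description. It was 0.28 ± 0.19 at 1 h, -0.51 at 2 h, 0.39 at 6 h and 0.49 at 18 h. Without the formoterol replicate 1 array the value at 1 h was 0.17. The sign at 2 h depends on the scale. In linear intensity units, computed as 2 to the power of each log2 group mean, the combination gained 1274 units over untreated cells at 2 h, against 715.4 with budesonide and 101.9 with formoterol. The combination was 1.82, 1.51, 1.43 and 1.27 times the level that adding the single-drug gains would give at 1, 2, 6 and 18 h. No error was attached to these ratios. Over untreated cells the combination was 14.2-fold higher at 1 h, 18.9-fold at 2 h, 9.30-fold at 6 h and 1.95-fold at 18 h. Among all genes the log2 interaction was called for 0.171%, 0.59%, 0.722% and 0.276% at the 4 times.

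**Figure D3:**
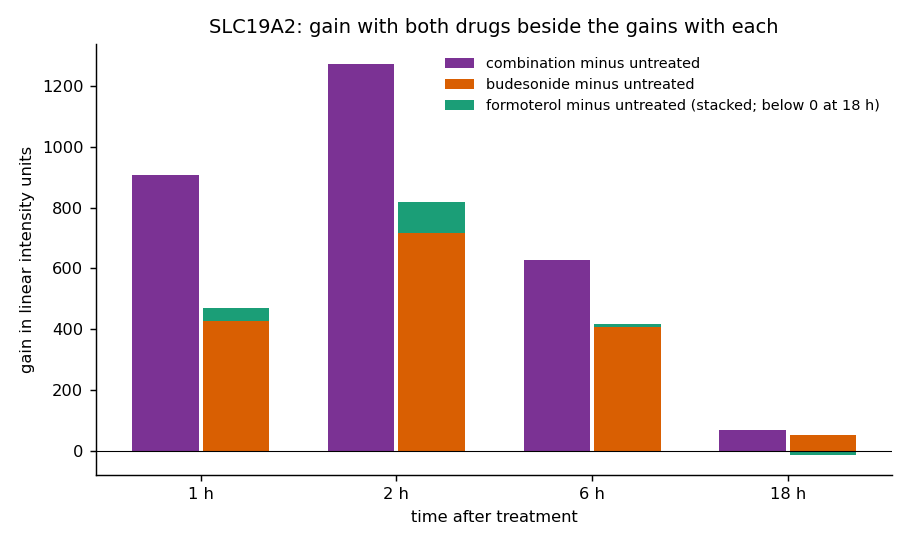
SLC19A2 gain over untreated cells in linear intensity units at each time, for the combination (left bar) and for budesonide and formoterol stacked (right bar). At 1 h the combination gained 908.2 units and the single drugs 426.8 and 42.7. At 18 h the formoterol gain was below 0, at -14.5, and is drawn under the axis.

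Ordered by mean, the 16 SLC19A2 groups ran from the combination at 2 h (10.39) to formoterol at 18 h (5.83). The combination at 2 h stood apart from the next group, and the combination at 1 h, budesonide at 2 h and the combination at 6 h each overlapped a neighbour. Budesonide at 1 and 6 h, at 8.95 and 8.92, could not be ordered against each other. A gap of over 1 log2 unit separated all 6 groups that had budesonide for 6 h or less from every other group. Below it the order from formoterol at 2 h (7.43) downward was one chain of overlapping neighbours. In untreated cells the mean at 18 h differed from that at 1 h by 0.05 (95% interval -0.21 to 0.32, adjusted p = 0.936 by limma, 0.364% of genes called). With a block on replicate number this comparison called 385 genes, against 66 without it.

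The genes whose 16 group means tracked SLC19A2 most closely, among 1708 genes spanning at least 1 log2 unit, were HS3ST1 (Pearson r = 0.975), ERRFI1 (0.954), FOXC2 (0.947), ZFAND5 (0.936) and CEBPB (0.934). HS3ST1 encodes a heparan sulphate sulphotransferase, ERRFI1 an inhibitor of the EGF receptor, and FOXC2 and CEBPB transcription factors. These correlations describe group means from the same arrays. HS3ST1 at 2 h averaged 7.26 with the combination, 6.37 with budesonide, 3.48 with formoterol and 3.01 in untreated cells, the last below the lower quartile of all values. At 18 h it was back at 3.18 with the combination, against 2.89 in untreated cells, whereas ERRFI1 was still at 9.01 with the combination, against 7.97 in untreated cells.

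SLC19A1, the folate carrier of the family, had no called change through 6 h on this probe set. Of its 20 comparisons at single times 2 passed the test, both falls with budesonide at 18 h. With budesonide alone the arrays read 7.43, 7.38, 7.30 and 7.45, against 8.08, 7.76, 7.73 and 7.62 in untreated cells. With the combination they read 7.52, 7.32, 7.22 and 7.12, against 7.76, 7.78, 7.79 and 7.84 with formoterol. In both comparisons every array with budesonide lay below every array without it. SLC19A1 fell by 0.41 ± 0.10 with budesonide alone (adjusted p = 0.000964 by limma) and by 0.50 ± 0.10 with the combination against formoterol (adjusted p = 5.06e-05). The fall in formoterol-treated cells is 1.41-fold and stood at rank 798 of 18132 from the lowest, in a contrast where 17.6% of genes were called.

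Through 6 h the SLC19A1 groups averaged between 7.74 and 7.96 and formed a chain of overlapping neighbours in the order of means. In the combination against formoterol the difference was -0.16 at 6 h (95% interval -0.35 to 0.03, adjusted p = 0.366), and its change from 6 to 18 h, -0.34 (-0.61 to -0.06), had an adjusted p of 0.147. The combination and budesonide at 18 h, at 7.29 and 7.39, overlapped each other and differed by -0.10 (-0.29 to 0.10, adjusted p = 0.91). Formoterol left SLC19A1 within 0.14 of untreated cells at every time, with adjusted p of 0.655 or more, and over the times F was 0.549 (adjusted p = 0.917).

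Other SLC19A1 probe sets gave smaller differences at 18 h. The next brightest, with a mean of 5.80, gave -0.37 for the combination against formoterol (adjusted p = 0.00924 over all probe sets) and -0.26 for budesonide against untreated cells (adjusted p = 0.0979). It also gave a called fall of 0.33 in the combination against formoterol at 6 h (adjusted p = 0.0338). The 2 dimmest, with means of 3.79 and 3.57, gave no call at 18 h. The call with budesonide alone thus holds on the chosen probe set only.

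**Figure D4:**
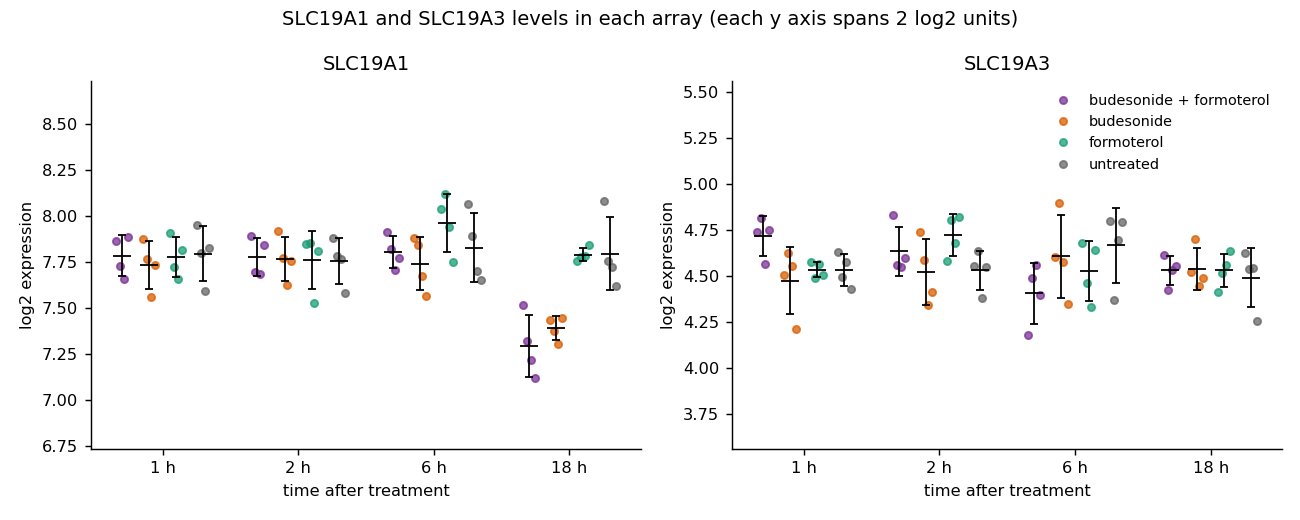
SLC19A1 (left) and SLC19A3 (right) levels (log2 expression) on each array by time and treatment, with the group mean ± SD (n = 4). Each axis spans 2 log2 units, and levels are not comparable between the panels. The 8 SLC19A1 arrays with budesonide at 18 h lie between 7.12 and 7.52, below the 8 arrays without it at that time (7.62 to 8.08), and each SLC19A3 group overlaps the next in the order of means.

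Several genes had group means that followed SLC19A1 closely over the 16 groups, led by the taurine transporter gene SLC6A6 (Pearson r = 0.981), the myosin light chain kinase gene MYLK (0.966) and MYPN (0.966). SLC19A1 itself spanned 0.67 log2 units across the groups and SLC6A6 2.31. These too describe group means from shared arrays.

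SLC19A3, the second thiamine carrier, lay between 4.40 and 4.72 in all 16 groups, and every group overlapped its neighbour in the order of means. None of its 20 comparisons passed limma's test, and 1 had an unadjusted p under 0.05, the combination against budesonide at 1 h (0.24, adjusted p = 0.667). For the combination against formoterol at 1 h, where SLC19A2 rose by 3.13, the SLC19A3 arrays read 4.74, 4.81, 4.56 and 4.75 with the combination, against 4.58, 4.49, 4.57 and 4.50 with formoterol. The difference was 0.18 (95% interval -0.03 to 0.40, adjusted p = 0.987), and at 2, 6 and 18 h it was -0.09, -0.12 and 0.00. The intervals at the 4 times together reach from -0.34 to 0.40, so a rise of that size lies outside them for this probe set. Its other probe sets averaged 2.62 and 1.89, below the lower quartile of all values. SLC19A3 thus read above this rough guide to background on the chosen probe set only. The dimmer of the other probe sets had 1 called comparison, a fall of 0.34 with budesonide at 6 h to 1.61, against 1.95 in untreated cells (adjusted p = 0.0496). No gene tracked SLC19A3 closely, the best being RNF19A at r = 0.652.

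Genes downstream of the carriers were read from lists of 65 genes, of which 58 were measured. Of the 3 measured genes of thiamine handling outside the family, none was called at 1, 2 or 6 h in the 4 comparisons between treatment pairs. These comparisons called between 0.998% and 14.2% of all genes at those times, so no call among 3 genes is near that share. SLC35F3, a proposed thiamine carrier, fell at 18 h in all 4. At that time 17.6% of all genes were called in the combination against formoterol, 18.3% with budesonide, 1.11% with formoterol and 0.651% in the combination against budesonide. SLC35F3 averaged 4.30 ± 0.36 with the combination, 4.94 ± 0.17 with budesonide, 4.94 ± 0.11 with formoterol and 5.48 ± 0.10 in untreated cells (SD, n = 4 each). The log2 differences were -0.64 for the combination against formoterol (adjusted p = 2.41e-05), -0.54 for budesonide (0.00032), -0.54 for formoterol (0.0064) and -0.64 for the combination against budesonide (0.000825), by limma. The last pair lost their calls when the compared groups were fitted alone (adjusted p = 0.0737 and 0.0704).

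Of the 17 thiamine diphosphate enzymes and subunits of their complexes, none was called at 1 or 2 h in the combination against formoterol. Over all genes 1.27% and 4.15% were called at these times, so no call among 17 genes is near that share. At 6 h 2 rose and 2 fell in that comparison, 4 of 17, with a list median of 0.02 against 0.00 over all genes and 13.4% of all genes called. HACL1, an enzyme of fatty acid alpha-oxidation, fell by 0.30 ± 0.08 (adjusted p = 0.0032). PDHA1, a subunit of pyruvate dehydrogenase, rose by 0.22, and DLST, the succinyltransferase of oxoglutarate dehydrogenase, rose by 0.22. The DLST call was lost without the combination replicate 1 array (adjusted p = 0.0857) or the formoterol replicate 3 array (0.0576), and the PDHA1 call without the combination replicate 2 (0.0694) or replicate 3 array (0.0536). PDHB, the partner subunit of PDHA1 and named after its values were seen, fell by 0.20, and its call was lost without 3 of the 8 compared arrays in turn (adjusted p up to 0.0992). With the compared groups fitted alone, DLST, PDHA1 and PDHB all lost their calls at 6 h (adjusted p = 0.0644, 0.0628 and 0.0634). The mean of all probe sets gave DLST no call at 6 h either (adjusted p = 0.714). At 18 h transketolase, TKT, fell by 0.27 ± 0.06 in the combination against formoterol (adjusted p = 0.000845), all 4 arrays being lower. DLST rose by 0.19 there (adjusted p = 0.0434), and that call was lost without 6 of the 8 compared arrays in turn (adjusted p up to 0.243). It was also lost with the mean of all probe sets (adjusted p = 0.706).

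The 8 measured kinases and phosphatases of these dehydrogenases included genes that moved as early as SLC19A2 did. PDK4, a kinase that switches pyruvate dehydrogenase off, averaged 5.78 at 1 h, 7.57 at 2 h, 7.88 at 6 h and 6.06 at 18 h with the combination, against 2.78, 2.75, 2.82 and 2.85 with formoterol, all below the lower quartile. Measured from that quartile to the combination means, its rise was 2.76, 4.55, 4.86 and 3.04 log2 units. These are differences from means and leave out the spread of the combination arrays (SD 0.99, 0.79, 0.43 and 0.31, n = 4 each). PDP1, a phosphatase that switches the enzyme back on, fell in the same comparison by 0.46 at 1 h (adjusted p = 0.00421), 0.89 at 2 h (4.75e-10), 0.60 at 6 h (6.95e-06) and 0.69 at 18 h (2.06e-07), with no overlap of arrays at any time. At 1 h its call was lost without all replicate 1 arrays (adjusted p = 0.0817). The branched-chain phosphatase PPM1K fell by 0.76 at 6 h (adjusted p = 5.5e-05) and the kinase PDK1 by 0.90 at 18 h (adjusted p = 0.000302). In all, 1 of the 8 genes rose and 1 fell at each of the first 2 times. At 6 h 1 rose and 2 fell, and the counts at 18 h were 2 higher and 3 lower. Over all genes the comparison called 1.27% at 1 h, 4.15% at 2 h, 13.4% at 6 h and 17.6% at 18 h. Of those at 18 h, 2 fell outside the 3 largest and are named after their values were seen, the kinases PDK2 (0.43, adjusted p = 0.00489) and PDK3 (-0.40, adjusted p = 0.0109). PDK2 lost its call without the formoterol replicate 3 array (adjusted p = 0.0567), and PDK3 lost it without the formoterol replicate 2 (0.0872) or replicate 3 array (0.0775). PDK3 also lost its call with the compared groups alone (adjusted p = 0.166) and without all replicate 1 arrays (0.113).

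Of 20 measured folate and one-carbon genes, the neighbours of SLC19A1, none was called in the combination against formoterol at 1 or 2 h, 3 fell at 6 h, and 3 fell and 2 rose at 18 h. Over all genes that comparison called 1.27% at 1 h, 4.15% at 2 h, 13.4% at 6 h and 17.6% at 18 h. The counts at 1, 2 and 6 h are thus near the share of all genes. MTHFD1L, the mitochondrial formate-producing synthetase, moved with both drugs. Formoterol raised it by 1.31 ± 0.10 at 6 h (adjusted p = 4.74e-16), and the combination stood below formoterol there by 0.52 (adjusted p = 4.29e-05). At 18 h it fell by 1.02 in the combination against formoterol (adjusted p = 8.52e-13) and by 1.28 with budesonide alone (adjusted p = 1.47e-16). FOLR3, a secreted folate receptor, fell by 0.80 ± 0.16 at 18 h in the combination against formoterol (adjusted p = 0.00014). SLC46A1, the proton-coupled folate transporter, fell by 0.44 at 6 h (adjusted p = 0.0189), a call lost without either the combination replicate 3 or replicate 4 array (0.05 and 0.193), and by 0.41 at 18 h, a call lost without 5 of the 8 compared arrays in turn (adjusted p up to 0.134). With the compared groups alone both SLC46A1 calls were lost (adjusted p = 0.0558 and 0.0787). The mitochondrial folate carrier SLC25A32 fell by 0.35 at 6 h (adjusted p = 0.00302). That call was lost without the formoterol replicate 3 array (adjusted p = 0.0565) and with the compared groups alone (0.0631). The mean of all probe sets gave SLC25A32 no call either (adjusted p = 0.24). The genes that rose at 18 h, named after their values were seen, were the folate hydrolase GGH (0.33, adjusted p = 0.00326) and methionine synthase, MTR (0.36, adjusted p = 0.0134, or 0.0653 without the formoterol replicate 1 array). MTR also had no call with the mean of all probe sets (adjusted p = 0.0659) or without all replicate 1 arrays (0.0782).

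Of 10 measured carriers and binding proteins of other vitamins, 1 was called in that comparison over the 4 times, LMBRD1, a lysosomal cobalamin protein, which rose by 0.29 at 18 h (adjusted p = 0.0328). At that time 17.6% of all genes were called, so 1 of 10 is not above the share of all genes. Its call was lost without any 1 of the combination arrays of replicates 2 and 4 or the formoterol arrays of replicates 2 and 3 (adjusted p 0.0598, 0.194, 0.0716 and 0.158). The list medians at 18 h were -0.02 for folate and -0.09 for the other vitamins, against -0.01 over all genes.

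**Figure D5:**
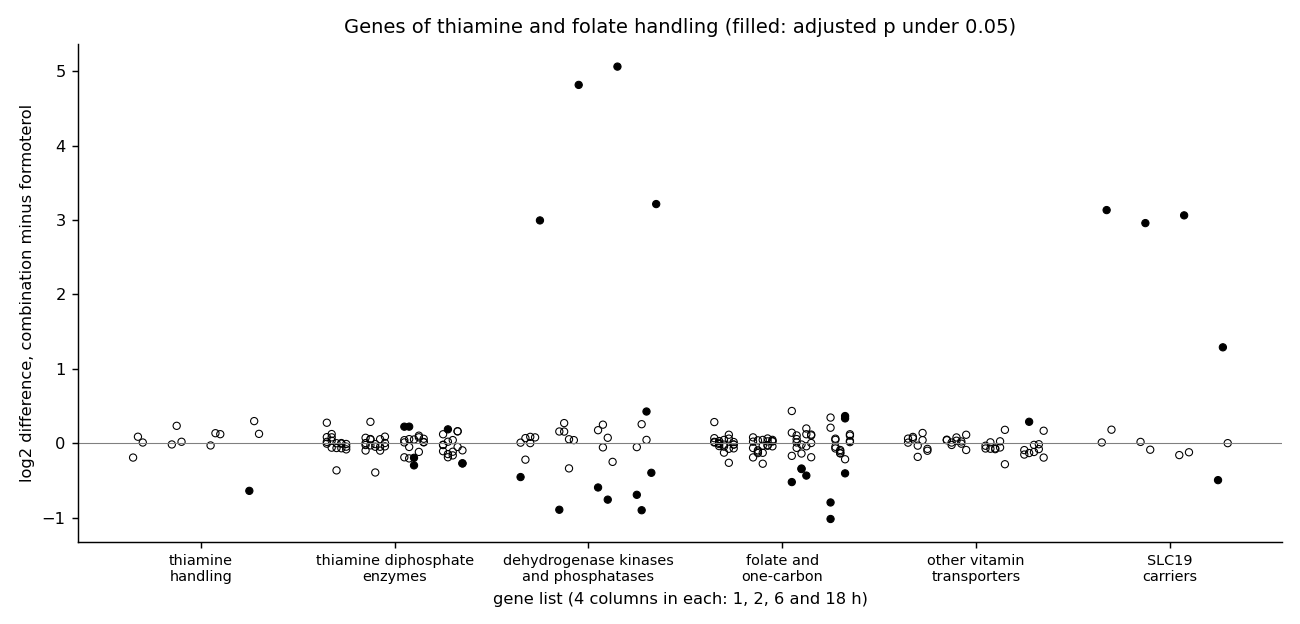
Log2 differences, combination minus formoterol, of the measured genes of 5 lists and of the 3 SLC19 carriers, with 4 columns per list for 1, 2, 6 and 18 h. Filled points have an adjusted p under 0.05. Points above 1 are PDK4, plotted as fitted and not against the lower quartile, and SLC19A2, and most other genes lie within 0.5 of 0.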

How the data were processed

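The authors deposited log2 expression for each probe set, made with RMA (background correction, normalization and probe summary) per the submitters' processing notes, with no version given in the sources used here. Where arrays are normalized together, a shift common to most genes is removed. Of 49395 probe sets the platform annotation gave 44994 a single gene symbol, 1832 several and 2569 none. Only the first kind was used, with the brightest probe set standing for each of 18132 genes, 11735 of which had several.

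One limma 3.58.1 model in R 4.3.3 had 1 mean per group, 48 residual degrees of freedom and an intensity trend. Two-sided p-values were adjusted by Benjamini-Hochberg over all genes in each comparison, and calls were made at 0.05. The code was tested on simulated data. Figures used matplotlib 3.10.9 in Python 3.11.15 with pandas 2.3.3.

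The carriers and gene lists were chosen with earlier results of these data known. Genes named besides the carriers are called list genes, at most the 3 of largest absolute difference per list and comparison, and the 5 genes of most similar group means per carrier. Replicate numbers 1 to 4 recur in every group, and the labels do not say what they share. Same-numbered deviations from group means correlated above 0.1 for every pair in 12 of 24 comparisons (mean r 0.112 to 0.442), and the number was left out of the fit. Alternatives were a replicate block, median centring, repeated quantile normalization, a filter on dim genes, no trend, the mean of all probe sets, the compared groups alone, linear additivity, all replicate 1 arrays left out and each array left out. Single other probe sets of the carriers were added after seeing the data.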

Additional observations from a re-analysis of the deposited data

Results flagged for a closer look

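The change of the budesonide effect on SLC19A2 in formoterol-treated cells between 6 and 18 h, -1.77 log2 units, stood out as a tested difference between times. So did the formoterol effect on SLC19A2, which differed over the 4 times with an F of 27.9. That effect shares its untreated arrays with the contrast SLC19A2 was chosen on. Single arrays stood apart from the other 3 of their group in 2 of the 48 sets of 4 arrays examined (3 carriers in 16 groups), by Dixon's ratio of the gap to the range. Chance gives about 1 such case in 20 groups, so 2 are no more than chance would give. The SLC19A2 budesonide replicate 1 array at 6 h read 9.10, against 8.83 to 8.87 on the others (ratio 0.844). The SLC19A1 formoterol replicate 3 array at 2 h read 7.53, against 7.81 to 7.86 (ratio 0.861).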

How the results depend on the processing

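The comparisons followed were those of SLC19A2, and for SLC19A1 budesonide at 18 h and combination minus formoterol at 6 h, 18 h and between them. Other comparisons of SLC19A1, and those of SLC19A3, entered only as a count of calls, and their signs were not checked. Among those followed, no sign or call changed with median centring, repeated quantile normalization, no intensity trend or the compared groups alone. The filter on dim genes, which drops SLC19A3, changed none either. With the replicate block, in a comparison whose numbers do not pair every array, the SLC19A1 change in combination minus formoterol from 6 to 18 h stayed at -0.337 but passed the threshold (adjusted p = 0.0175, and 0.00649 with the block within time). The block changed no other call among the comparisons followed. It moved counts of called genes by 1.25 to 5.83 times, and by 1.48 to 10.2 times within time, so the percentages called depend on it.

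Other probe sets gave, for SLC19A1 at 18 h, 0.0225, -0.192 and -0.26 with budesonide and -0.0208 and -0.164 without a call in combination minus formoterol. For SLC19A2 the second probe set gave 0.214 with formoterol at 1 h, 0.808 and 0.548 for combination minus budesonide at 2 and 6 h, and 0.719 for combination minus formoterol at 18 h, none called. Uncalled values near 0 turned sign with the mean of probe sets, to -0.108 for the SLC19A2 change from 2 to 6 h and -0.0134 for untreated cells at 18 against 1 h (-0.0121 to 0.147 with an array left out). Formoterol at 18 h ranged from -0.48 to -0.171 with an array left out and was -0.549 without all replicate 1 arrays. The interaction at 18 h was then 0.731. On the linear scale the interaction was 0.86 at 1 h and 0.598 at 2 h. The cause of these moves was not tested.

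Of 66 list gene results, 34 lost a call under some alternative and none turned sign. Counts of called genes were 0.121 to 0.915 times those reported without all replicate 1 arrays, 0.383 to 1.56 times with the compared groups alone and 0.242 to 1.73 times with single arrays left out.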
